A study of Mus musculus with 56 samples.

Results

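Triglycerides are built in adipocytes by adding fatty acyl chains to a glycerol backbone one after the other. In the glycerol phosphate pathway, Gpam adds the first acyl chain, Agpat2 and Agpat3 add the second, the lipins Lpin1 and Lpin2 remove the phosphate to give diacylglycerol, and Dgat1 and Dgat2 add the last chain. Mogat1 and Mogat2 reach diacylglycerol by a shorter route, acylating monoacylglycerol. That route is best known from the enterocyte, where Mogat2 re-esterifies absorbed dietary fat. Pnpla3, a patatin-like phospholipase domain protein of lipid droplets, is known as a gene that is switched on by feeding and lipogenic signals. These 10 genes were chosen by name, with earlier results of these data known, and all 10 were found among the 25939 genes of the table. Their transcripts were followed in visceral adipose tissue (VAT) in 56 libraries, 1 per mouse.

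The mice were female C57BL/6J, 9 weeks old, kept under 12 h of light and 12 h of dark and fed for 7 days in a restricted window. Under nighttime-restricted feeding (NRF, the control) food was given in the dark phase, and under daytime-restricted feeding (DRF) in the light phase. Tissue was taken from 4 mice at each of 7 zeitgeber times (ZT0 is lights on, ZT12 lights off) from ZT0 to ZT24 under each regimen, with ZT0 and ZT24 from different mice. All mice were wild type, and no group was left with free access to food. The deposited values gave back whole read numbers, between 31.3 and 41.3 M reads on genes per library, and levels below are in CPM, reads scaled to the library size, unless TPM, which are also scaled to transcript length, are named.

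Adipocyte markers were abundant in every library. The summed level of Adipoq, Plin1, Fabp4, Cfd, Cidec and Lep was 22820 to 42080 CPM under NRF and 18870 to 34890 CPM in 26 of the 28 DRF libraries. The other 2, DRF ZT8 replicate 1 (10840 CPM) and DRF ZT0 replicate 4 (15730 CPM), stood apart. Their simple-epithelium markers (Krt8, Krt18, Krt7, Epcam, Cdh1, Wfdc2 and Muc1) summed to 544 and 1404 CPM, against 17.9 to 88.5 CPM in all other libraries. In addition, the 4 liver markers summed to 1589 CPM in NRF ZT24 replicate 4 (Alb at 1385 CPM) and to at most 73.1 CPM under DRF. Of 4 intestinal markers, relevant to Mogat2 as an enterocyte gene, Vil1 and Fabp2 were in the table and summed to at most 1.66 CPM in any library. Calls that change without the 2 libraries with epithelial markers are given both ways. Leaving out NRF ZT24 replicate 4 changed none of the limma calls on the mean level of the 10 genes.

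Mogat2 and Dgat2 are neighbors: on GRCm38, Dgat2 lies at chr7:99153658-99182719 and Mogat2 at chr7:99219084-99238619, both on the minus strand and 36.4 kb apart. Their coding sequences, of 1164 and 1002 bases, were 54.2% identical when aligned, and Mogat2 and Mogat1 (1005 bases) were 59.2% identical. As reads were 150 bases long and reads of related genes can be confused, the longest stretches shared without a mismatch by the GENCODE M21 transcripts are printed, 14 bases for Mogat2 and Dgat2 (chr7:99222257-99222270 in an exon of Mogat2) and 12 bases for Mogat2 and Mogat1 (chr7:99223624-99223635, also in an exon of Mogat2).
Mogat2 and Dgat2: agcccatcaccacc
Mogat2 and Mogat1: cagctggagcct
An antisense gene, Gm45012, shares 55 of the 1835 exon bases of Mogat2. The library kit does not keep strand, so reads in that stretch cannot be told apart, and Gm45012 averaged 0.421 CPM. BC035947 shares 200 of the 1558 exon bases of Mogat1 on the other strand, at a mean of 3.34 CPM, so the Mogat1 level is uncertain to that extent.

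Promoter windows, 250 bases before to 50 after a start site, were available from RefSeq (GRCm38.p6) for 7 of the 10 genes, with 10 windows in all. In these, 8 short motifs were searched on both strands. They were the E-box CACGTG read by CLOCK and BMAL1, the D-boxes TTACGTAA and TTATGTAA, the nuclear receptor site AGGTCA, the forkhead motif TGTTTAC, the sterol element TCACNCCAC, the CCAAT box CCAAT and the C/EBP motif TTGCGCAA. A match describes letters only. The 3 windows printed belong to genes whose rhythm is described below, and capitals mark the matches: CCAAT (read as ATTGG) 99 bases before the Pnpla3 start, CACGTG 9 bases before an Lpin2 start and AGGTCA 74 bases before the Lpin1 start.
Pnpla3, chr15:84167566-84167865, plus strand: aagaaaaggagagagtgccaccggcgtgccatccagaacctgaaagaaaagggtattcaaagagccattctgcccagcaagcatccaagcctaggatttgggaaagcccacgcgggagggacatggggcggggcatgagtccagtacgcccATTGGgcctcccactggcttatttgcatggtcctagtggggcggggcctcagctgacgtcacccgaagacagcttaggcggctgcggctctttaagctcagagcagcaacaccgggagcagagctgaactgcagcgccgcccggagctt
Lpin2, chr17:71183282-71183581, plus strand: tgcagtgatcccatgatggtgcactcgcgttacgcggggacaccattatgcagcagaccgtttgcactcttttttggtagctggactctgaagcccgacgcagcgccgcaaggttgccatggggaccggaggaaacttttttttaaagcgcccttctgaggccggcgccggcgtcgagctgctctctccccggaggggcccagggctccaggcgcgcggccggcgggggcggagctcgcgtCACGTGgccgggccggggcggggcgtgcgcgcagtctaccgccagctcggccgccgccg
Lpin1, chr12:16610917-16611216, minus strand: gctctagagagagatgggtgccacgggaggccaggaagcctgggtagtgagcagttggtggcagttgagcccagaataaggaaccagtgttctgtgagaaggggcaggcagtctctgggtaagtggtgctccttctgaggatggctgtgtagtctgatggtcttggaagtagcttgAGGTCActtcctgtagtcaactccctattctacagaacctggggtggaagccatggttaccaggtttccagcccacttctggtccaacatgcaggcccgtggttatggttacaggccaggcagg
CACGTG was present in 1 of the 10 windows of these genes and in 7.15% of the 32851 windows of the table, AGGTCA in 2 of 10 and 16.3%, TGTTTAC in 1 of 10 (another Lpin2 window) and 3.65%, and CCAAT in 4 of 10 and 37.4%. TTACGTAA, TTATGTAA, TCACNCCAC and TTGCGCAA were in none of the 10 windows, and in 0.119%, 0.938%, 1.24% and 0.183% of all windows. The windows of Agpat2 and Agpat3 held none of the 8 motifs.

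Per transcript length, Dgat2 mRNA was the most abundant of the 10 and Lpin2 mRNA the least. Dgat2 was at 3475 ± 1557 TPM under NRF and 3794 ± 954 TPM under DRF (mean ± SD, n = 28 each), and it exceeded Agpat2 in 55 of 56 libraries. Agpat2, at 1846 ± 723 and 2100 ± 871 TPM, exceeded Pnpla3 in all 56, and Pnpla3, at 814 ± 407 and 990 ± 310 TPM, exceeded Gpam in 50. Below them came Dgat1, Lpin1 and Agpat3. Gpam and Dgat1 are not separated by these data: Gpam was above Dgat1 in 42 of 56 libraries at 444 TPM against 322 TPM, but its length had to be taken from the values, and at its annotated length it would be at 255 TPM. The monoacylglycerol acyltransferases were scarce. Mogat1 lay at 27.1 ± 3.23 TPM under NRF and 27.5 ± 4.21 TPM under DRF, and Mogat2 at 26.95 ± 18.02 TPM under NRF and 72.0 ± 25.5 TPM under DRF. Mogat2 was above Mogat1 in 39 of 56 libraries. Lpin2 was the lowest, at 4.29 ± 0.638 and 4.60 ± 0.987 TPM.

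**Figure D1:**
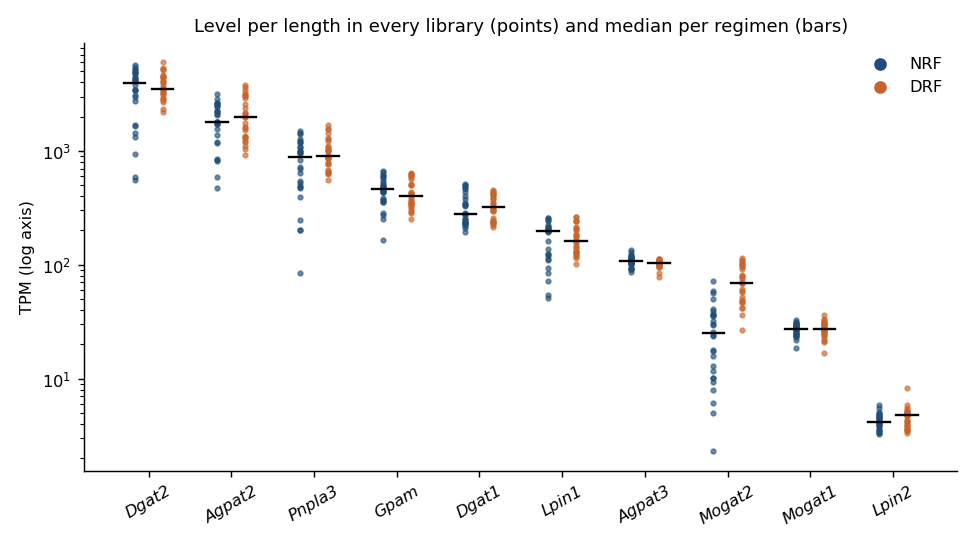
TPM of each gene on a log axis in the 28 NRF and the 28 DRF libraries (points), with the median of each regimen as a bar. Mogat2 has a median of 24.96 TPM under NRF and 69.2 TPM under DRF, while Mogat1 has 27.4 TPM under both.

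Mogat2 had a higher mean level under DRF than under NRF, with mice of the regimens apart at some times and overlapping at others. Under NRF, its level in the 4 mice was 5.80, 18.9, 43.5 and 21.8 CPM at ZT0, then 14, 24.9, 3.82 and 5.56 CPM at ZT4, and 4.75, 1.35, 21.1 and 2.95 CPM at ZT8. At ZT12 it was 4.71, 14.1, 9.29 and 32.9 CPM, and at ZT16 6.43, 17.8, 7.82 and 13.8 CPM. The mice differed widely at these times, whereas at ZT20, in the feeding phase, the 4 values lay close together at 28.9, 17.5, 21.4 and 21.0 CPM. At ZT24 they spread again, at 9.36, 9.88, 22.1 and 33.8 CPM.

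Under DRF, Mogat2 was at 38.6, 26.6, 29.6 and 13.7 CPM at ZT0, where the last value is one of the libraries with epithelial markers. It was at 46.0, 40.9, 66.6 and 72.3 CPM at ZT4. At ZT8 it was at 25.1, 23.4, 59.7 and 62.6 CPM, the first from the other library with epithelial markers. At ZT12, the end of the feeding phase, it was at 66.7, 26.3, 42.4 and 31.4 CPM. In the dark phase, without food, it was at 48.5, 39.8, 57.6 and 61.5 CPM at ZT16 and 22.4, 50.5, 61.0 and 22.0 CPM at ZT20, and at its end, at ZT24, at 27.6, 57.4, 36.9 and 38.9 CPM. The group mean was higher under DRF at each of the 7 times. Every DRF mouse was above every NRF mouse at ZT4, ZT8 and ZT16, and the regimens overlapped at ZT0, ZT12, ZT20 and ZT24. Such a separation upward was met by 12.2%, 5.94% and 9.98% of all genes at ZT4, ZT8 and ZT16.

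**Figure D2:**
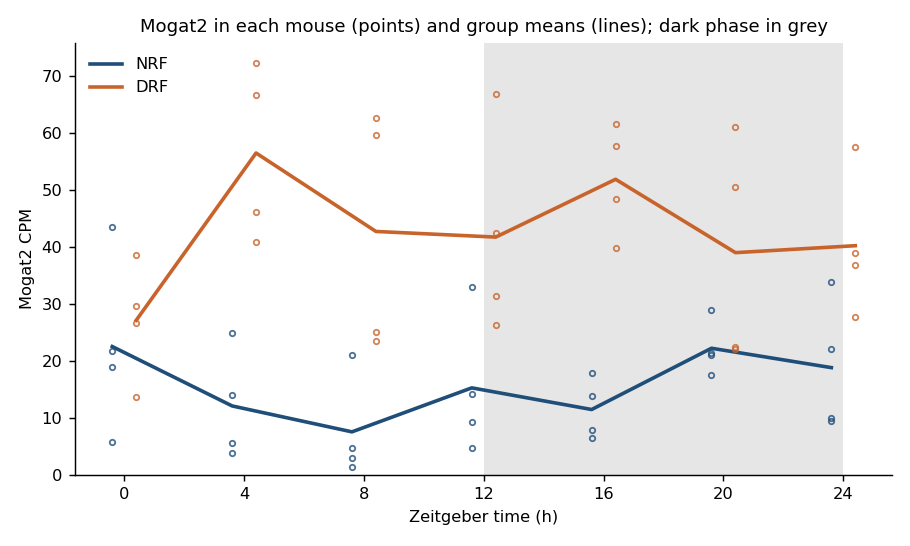
Mogat2 level in CPM against zeitgeber time in each mouse (points, 4 per group) with group means (lines) for NRF and DRF. The DRF line runs above the NRF line throughout, from 27.1 against 22.5 CPM at ZT0 to 56.5 against 12.1 CPM at ZT4.

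Averaged over the day, Mogat2 was at 42.7 ± 16.6 CPM under DRF and 15.7 ± 10.65 CPM under NRF (mean ± SD, n = 28 each). The ratio of these CPM means was 2.72. The test compared fitted means on log2(CPM + 1), where low values weigh more than in CPM means. That difference was 1.70 (SE 0.21), 3.25-fold on this scale, with an adjusted p of 2.21e-08 by limma with Benjamini-Hochberg adjustment over 25920 genes. It kept its direction and stayed below the threshold of 0.05 in all 66 alternatives tried, where the difference ranged from 1.57 to 1.82. In bulk tissue, more cells of a type and more transcript per cell cannot be told apart.

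Of the 10 genes, 3 differed in mean level, all upward under DRF. Of all genes tested 21.7% were called, 11.4% upward and 10.3% downward. Besides Mogat2 these were Pnpla3 and Lpin2. Pnpla3 went from 398 ± 201.5 to 487 ± 149 CPM, with a difference of fitted log2 means of 0.66 (SE 0.13, adjusted p = 7.54e-05 by limma). The ratio of its CPM means was 1.22, and its DRF group mean was below the NRF one at ZT0, ZT20 and ZT24. Lpin2 went from 16.5 ± 2.39 to 17.8 ± 2.70 CPM, with a log2 difference of 0.13 (SE 0.04, adjusted p = 0.0175 by limma). The Lpin2 call was lost on total reads and without the mice numbered 1 (adjusted p up to 0.292 by limma over the alternatives). Without the NRF ZT24 library that carries liver transcripts, the differences were 1.73 for Mogat2, 0.68 for Pnpla3 and 0.13 for Lpin2. Without both libraries with epithelial markers 5 of the 10 passed, as did 7495 of all 25920 genes in place of 5624, the added ones being Agpat2 (0.39, adjusted p = 0.0134 by limma) and Dgat2 (0.44, adjusted p = 0.0426 by limma), which with all libraries were at 0.32 (adjusted p = 0.0756) and 0.37 (adjusted p = 0.135). Agpat2 also passed with all libraries where genes under a mean CPM of 1 were left out (adjusted p = 0.0462 by limma). It passed as well without any 1 of 4 single libraries (adjusted p 0.0238 to 0.0496 by limma). Among these were DRF ZT8 replicate 2 (0.0436) and NRF ZT8 replicate 3 (0.041). On total reads Agpat3 was called lower (-0.10, adjusted p = 0.0185 by limma). The 5 others with all libraries, Gpam, Agpat3, Lpin1, Dgat1 and Mogat1, had differences between -0.05 and 0.10. The median over the 10 genes was 0.12, against -0.00037 over all genes. Of the 6 adipocyte markers, Adipoq (-0.31) and Cfd (-1.37) were lower and Lep (0.60) higher under DRF by the same test, and the other 3 were not called. Markers of other cells moved as well: the red cell genes Hba-a1 (0.52) and Hbb-bs (0.48) were higher under DRF, and Adgre1 of macrophages (-0.26) and Wt1 (-0.26) and Upk3b (-0.27) of mesothelium were lower, while Cd68, Lyz2 and Msln were not called. Vil1, at means of 0.401 CPM under NRF and 0.603 CPM under DRF, and Krt14, at 0.420 and 0.254 CPM, were also called at these low levels. The part of cell content in the differences of the 10 genes was not tested.

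Daily rhythms were compared next, first within each regimen and then between them. A 24 h rhythm was called under NRF for 6 of the 10 genes (Agpat2, Agpat3, Lpin1, Lpin2, Dgat1 and Pnpla3), where 25.5% of all genes were called, and under DRF for 4 (Agpat2, Lpin2, Dgat1 and Pnpla3), where 14.7% were. These 4 were called under both, as were 9.31% of all genes. The call combined JTK_CYCLE and Lomb-Scargle with a Benjamini-Hochberg adjusted p under 0.05. The rhythm at a given clock time differed between the regimens for 8 genes, all but Agpat3 and Mogat1, by the interaction test in limma, which called 36% of all genes and does not separate a change in peak time from one in amplitude. Agpat3 (adjusted p = 0.064) joined them without the 2 libraries with epithelial markers (adjusted p = 0.0361, with 10515 of all genes called in place of 9331), where genes under a mean CPM of 1 were left out (0.0439), on total reads (2.81e-05) and without any 1 of 6 single libraries (0.0329 to 0.0488). Calls were also lost, that of Dgat2 without the mice numbered 4 (0.0837) and that of Mogat2 without those numbered 1 (0.105), 3 (0.0752) or 4 (0.204) or any 1 of 8 single libraries. The test was also run after setting the DRF times back by 12 h, so that feeding phases coincide. It called 3 genes (Lpin1, Dgat1 and Pnpla3), where it called 14.9% of all genes. The call of Dgat1 was lost without any 1 of 2 single libraries and without the mice numbered 2, 3 or 4 (adjusted p 0.0623 to 0.246 by limma). That of Lpin1 was lost without any 1 of 5 single libraries and without the mice of any 1 replicate number (0.0855 to 0.117). That of Pnpla3 was lost without the mice numbered 2. Leaving out replicate numbers or single libraries left 0 to 3 calls.

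The regimens were also compared mouse by mouse at each time. At ZT4 every DRF mouse was above every NRF mouse for 7 of the 10 genes (Gpam, Agpat2, Lpin1, Lpin2, Dgat1, Dgat2 and Mogat2), and at ZT20 every DRF mouse was below every NRF mouse for 6 (Gpam, Agpat2, Lpin1, Lpin2, Dgat2 and Pnpla3). Among all genes, 12.2% separated upward at ZT4 and 10.1% downward at ZT20. Dgat1 separated upward at ZT20, as did 9.61% of genes. At ZT24, Dgat1 lay above (8.13% of genes) and Lpin2 and Pnpla3 lay below (7.35%). At ZT12, Agpat2, Lpin2 and Pnpla3 lay above (11.8%) and Dgat1 below (9.94%). At ZT16, Agpat3 and Mogat2 lay above (9.98%) and Gpam and Dgat1 below (8.93%). At ZT8, Mogat2 and Pnpla3 lay above (5.94%) and Dgat1 below (5.81%). At ZT0, where one DRF library carries epithelial markers, none of the 10 separated, against 5.14% of genes upward and 4.73% downward.

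**Figure D3:**
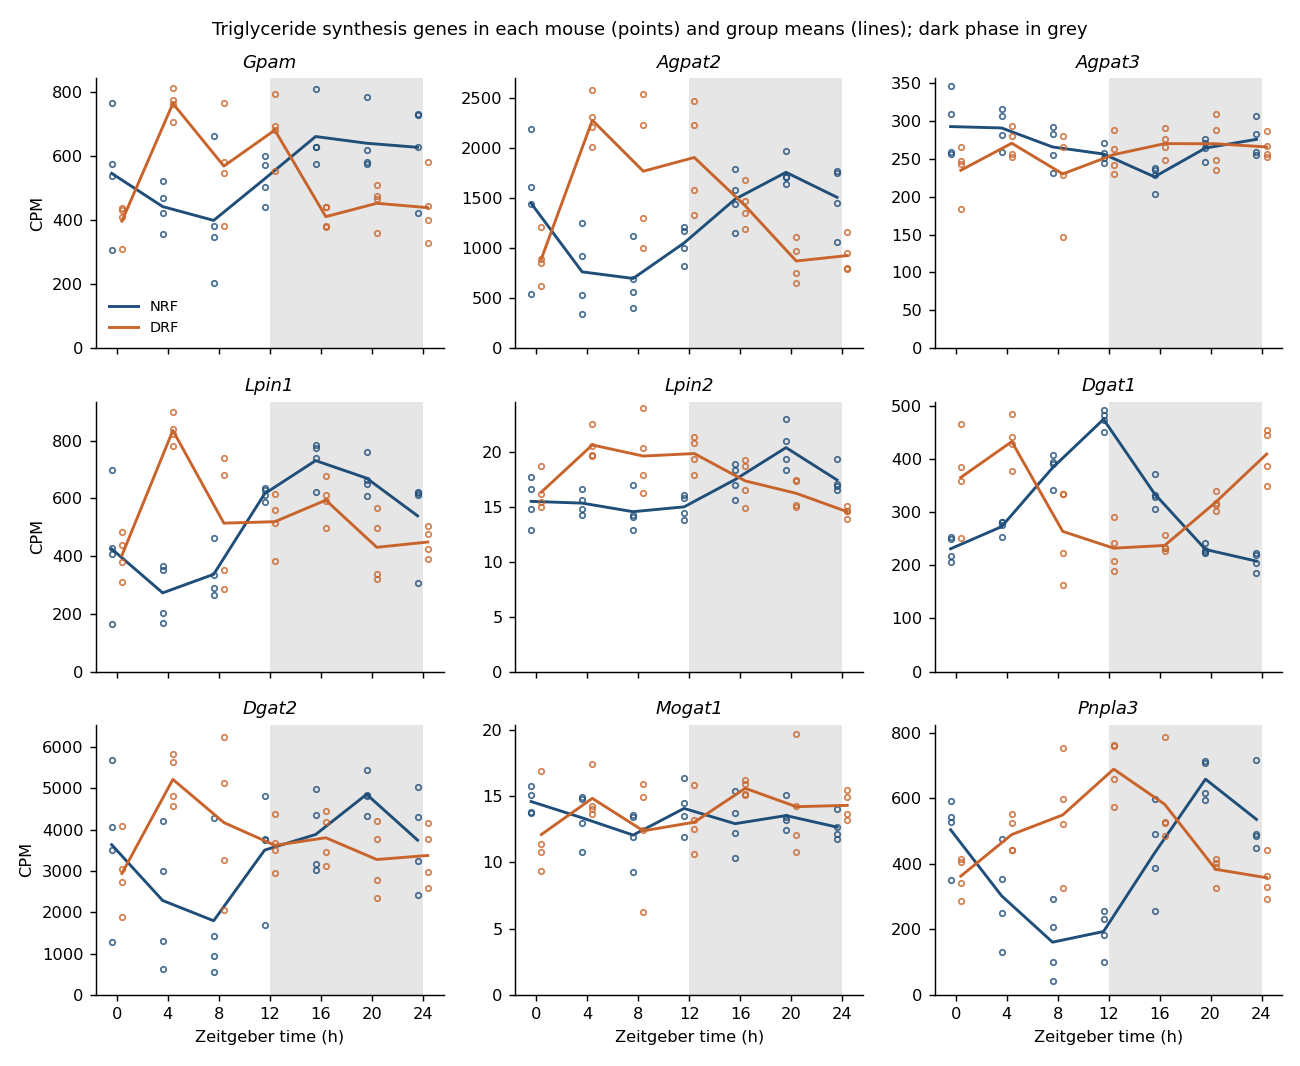
Level in CPM against zeitgeber time in each mouse (points, 4 per group) with group means (lines) under NRF and DRF for the 9 genes other than Mogat2. Dgat1 is highest at ZT12 under NRF (475 CPM) and at ZT4 under DRF (433 CPM), while Mogat1 has group means between 12.05 and 15.6 CPM.

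Agpat2 (chr2:26593057-26604417), the acyltransferase whose loss causes lipodystrophy, peaked in the feeding phase of either regimen. Under NRF, its 4 mice were at 696, 403, 1126 and 567 CPM at ZT8 and at 1711, 1964, 1707 and 1640 CPM at ZT20. Under DRF they were at 1003, 1297, 2225 and 2541 CPM at ZT8 and at 756, 971, 1111 and 650 CPM at ZT20. The ZT20 groups did not overlap, whereas at ZT8 the lowest DRF mouse (replicate 1, with epithelial markers) lay below the highest NRF mouse. A cosine fit put its peak at ZT19.1 (SE 0.67 h) under NRF and at ZT8.91 (SE 0.72 h) under DRF, a shift of 10.2 h with a 95% interval of 8.25 to 12.2 h. Its amplitude, the height of the peak over the fitted mean on log2(CPM + 1), was 0.77 (SE 0.15) and 0.65 (SE 0.12), and the 95% interval of the difference, -0.50 to 0.27, spans 0. The rhythm had adjusted p = 0.000823 under NRF and 0.0036 under DRF, and it was lost under NRF without the mice numbered 2 or 4 and under DRF without those numbered 3 or 4.

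Gpam (chr19:55067268-55127238), the mitochondrial glycerol-3-phosphate acyltransferase, had fitted peaks close to those of Agpat2. It was at 383, 204, 662 and 348 CPM at ZT8 and 783, 620, 575 and 581 CPM at ZT20 under NRF, and at 762, 776, 811 and 706 CPM at ZT4 and 474, 466, 510 and 360 CPM at ZT20 under DRF. The DRF values at ZT4 lay above all NRF values at that time (523, 469, 356 and 422 CPM). Its rhythm was not called under either regimen by the combined test (adjusted p = 0.0646 and 0.217), but was called under both by the limma F test (adjusted p = 0.00432 and 0.00616), and its rhythm differed between regimens (adjusted p = 3.63e-05 by limma). The combined test also called it under DRF without the 2 libraries with epithelial markers (adjusted p = 0.0158) and on total reads (0.0226). Under NRF the combined test called it with genes under a mean CPM of 1 left out (adjusted p = 0.04015). It did so as well without the ZT24 libraries (0.0358) and without the mice numbered 3 (0.03675), as did JTK_CYCLE alone (0.0451). The fitted peaks were ZT18.8 (SE 0.92 h) and ZT7.90 (SE 0.86 h). Agpat3 (chr10:78269178-78352489) varied less, and its group means ran from 226 to 292 CPM under NRF and from 230 to 270 CPM under DRF. It was called rhythmic under NRF (adjusted p = 0.0195, amplitude 0.15, SE 0.04), a call lost without the mice numbered 2, 3 or 4, and not under DRF (adjusted p = 1).

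The lipins were expressed at very different levels. Lpin1 (chr12:16535669-16610966), the main phosphatidate phosphatase of fat, was at 365, 354, 169 and 204 CPM at ZT4 under NRF and at 781, 823, 899 and 840 CPM at ZT4 under DRF. At that time every DRF mouse was above every NRF mouse. At ZT16 the order of the means was the other way, with 741, 776, 621 and 786 CPM under NRF and 676, 497, 613 and 590 CPM under DRF. Lpin1 was rhythmic under NRF (adjusted p = 0.000217) with a peak at ZT16.9 (SE 0.60 h) and an amplitude of 0.75 (SE 0.13). Under DRF no rhythm was called (adjusted p = 1) and the amplitude was 0.22 (SE 0.13). The difference in amplitude was -0.53, with a 95% interval of -0.90 to -0.16. Lpin2 (chr17:71182560-71249817) was at 21.0, 22.9, 18.3 and 19.3 CPM at ZT20 and 14.3, 12.9, 17 and 14.1 CPM at ZT8 under NRF, and at 17.3, 15.2, 17.4 and 14.9 CPM at ZT20 and 24, 17.9, 16.2 and 20.3 CPM at ZT8 under DRF. Its peak moved from ZT19.4 (SE 0.72 h) to ZT8.95 (SE 0.81 h) at an amplitude of 0.20 under both (95% interval of the difference -0.12 to 0.12). Its rhythm under NRF (adjusted p = 0.00164) was lost without the mice numbered 2, and that under DRF (adjusted p = 0.0152) was lost in 6 of 11 alternatives, among them the one without the 2 libraries with epithelial markers (adjusted p = 0.0755).

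The last acyl chain is added by Dgat1 and Dgat2, of which only Dgat1 had a rhythm called by the combined test with all libraries and genes. Dgat1 (chr15:76502015-76511953) was at 407, 342, 390 and 395 CPM at ZT8, 492, 474, 483 and 450 CPM at ZT12 and was at 242, 222, 229 and 225 CPM at ZT20 under NRF, so that it was highest in the group at the end of the fasting phase. Under DRF it was at 441, 376, 485 and 428 CPM at ZT4, 291, 189, 208 and 242 CPM at ZT12 and 387, 456, 350 and 445 CPM at ZT24. At 6 of the 7 times the DRF and NRF mice did not overlap, with DRF above NRF at ZT4, ZT20 and ZT24 and below it at ZT8, ZT12 and ZT16. Its 4 mice agreed closely under NRF, where the spread within groups (pooled SD on log2) was 0.10, against 0.28 under DRF. The cosine accounted for 93.1% of its variance under NRF and 60.7% under DRF. Dgat1 had the smallest adjusted p of the 10 genes in the test of rhythm at clock time (3.59e-14 by limma).

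Dgat2 had fitted peaks at ZT18.8 (SE 0.89 h) under NRF and ZT7.61 (SE 1.84 h) under DRF. Under NRF it was at 1419, 548, 4280 and 931 CPM at ZT8 and at 4331, 4815, 5449 and 4839 CPM at ZT20. Under DRF it was at 4825, 4568, 5841 and 5647 CPM at ZT4, 2045, 3263, 6259 and 5128 CPM at ZT8 and 2788, 3771, 4204 and 2348 CPM at ZT20. The 4 NRF mice at ZT8 lay far apart, and the highest of them overlapped the DRF mice. With all genes, the combined test called no rhythm (adjusted p = 0.0764 under NRF and 1 under DRF). With genes under a mean CPM of 1 left out, it called one under NRF (adjusted p = 0.0477). The limma F test called one under NRF (adjusted p = 0.0006) and not under DRF (adjusted p = 0.625). The amplitude was 0.87 (SE 0.23) under NRF and 0.23 (SE 0.12) under DRF, with a difference of -0.64 (95% interval -1.16 to -0.13).

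Pnpla3 (chr15:84167837-84187236) had the highest fitted amplitude of the 10 genes under NRF. Under NRF its mice were at 208, 42.0, 292 and 100 CPM at ZT8 and at 617, 593, 708 and 714 CPM at ZT20, with no overlap. Under DRF they were at 325, 520, 752 and 599 CPM at ZT8, 763, 574, 759 and 659 CPM at ZT12 and 391, 413, 402 and 325 CPM at ZT20. The rhythm was called under NRF (adjusted p = 1.36e-05) and under DRF (adjusted p = 0.000504), the latter lost without the mice numbered 3 (adjusted p = 0.0782). The peak moved from ZT20.8 (SE 0.55 h) to ZT11.4 (SE 0.71 h), by 9.39 h (95% interval 7.59 to 11.2 h). The fitted peak-to-trough fold was 4.94 under NRF and 1.84 under DRF, and the amplitude fell by 0.71 on the log2 scale (95% interval of the difference -1.08 to -0.35). The difference in mean level was not even over the day, as DRF means were 3.42 and 3.57 times the NRF means at ZT8 and ZT12, and 0.582 and 0.667 times at ZT20 and ZT24.

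**Figure D4:**
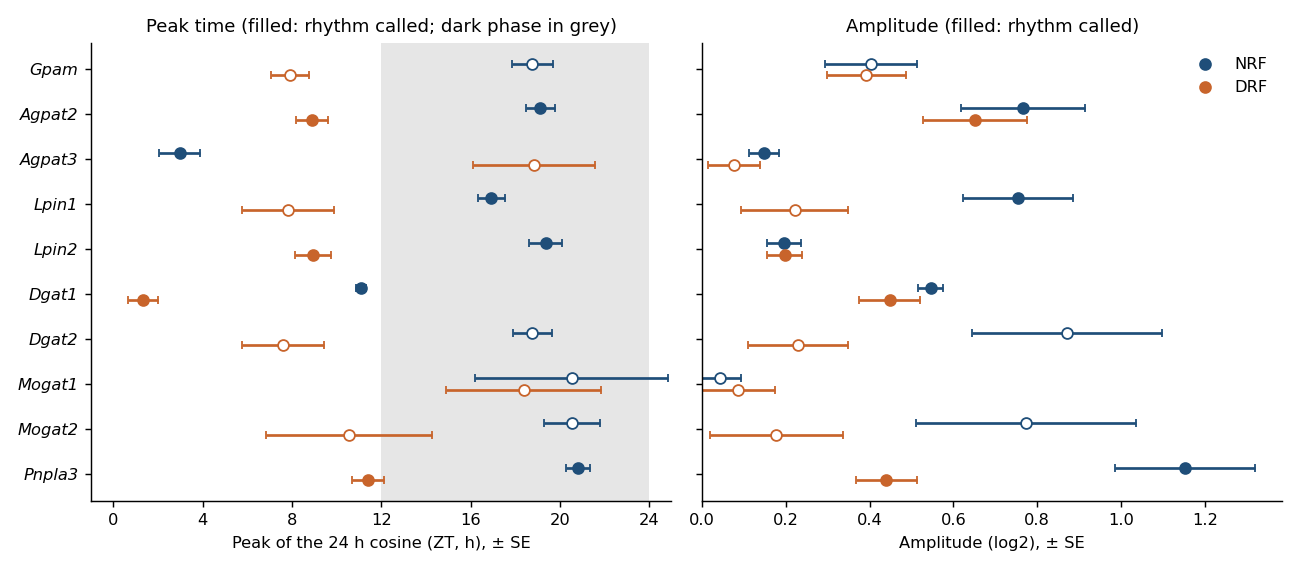
Peak time of a 24 h cosine (left, ZT in h, ± SE) and its amplitude on log2(CPM + 1) (right, ± SE) for the 10 genes under NRF and DRF, filled where a rhythm was called. Dgat1 peaks at ZT11.1 under NRF and ZT1.32 under DRF, away from Agpat2, Lpin2 and Pnpla3, which peak between ZT19.1 and ZT20.8 under NRF and between ZT8.91 and ZT11.4 under DRF.

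For the 4 genes rhythmic under both regimens (Agpat2, Lpin2, Dgat1 and Pnpla3) the shift was 9.39 to 10.4 h, with a median of 9.996 h. The 95% intervals of Dgat1 (8.34 to 11.2 h) and Pnpla3 (7.59 to 11.2 h) lay below the 12 h by which feeding was moved, and those of Agpat2 (8.25 to 12.2 h) and Lpin2 (8.22 to 12.6 h) included it. Amplitude was lower under DRF for 8 of the 10 genes as fitted, against 55.1% of all genes and 15 of the 23 further pathway genes described below. The 95% interval lay below 0 for 3 (Lpin1, Dgat2 and Pnpla3), against 7.72% of all genes. For Mogat2 the amplitude was 0.77 (SE 0.26) under NRF and 0.18 (SE 0.16) under DRF, with an interval of the difference of -1.21 to 0.02, and no rhythm was called under either (adjusted p = 0.548 and 1), although the limma F test called one under NRF (adjusted p = 0.0108). Mogat1 (chr1:78510991-78538173) had no called rhythm, with amplitudes of 0.04 (SE 0.05) and 0.09 (SE 0.09).

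Feeding and fasting were compared within a regimen at ZT20 and ZT8, in the middle of the dark and the light phase. Under NRF, ZT20 is the feeding phase, and 8 of the 10 genes differed from ZT8, as did 21.8% of all genes: 7 rose (Gpam, Agpat2, Lpin1, Lpin2, Dgat2, Mogat2 and Pnpla3) and Dgat1 fell, against 11.8% of all genes upward and 10% downward. The rises on log2(CPM + 1) were 2.36 (SE 0.35) for Pnpla3, 1.96 (SE 0.55) for Mogat2, 1.87 (SE 0.47) for Dgat2, 1.43 (SE 0.33) for Agpat2, 1.02 (SE 0.28) for Lpin1, 0.79 (SE 0.23) for Gpam and 0.46 (SE 0.10) for Lpin2, with adjusted p between 1.33e-06 and 0.00962 by limma. Dgat1 fell by 0.73 on the log2 scale (SE 0.15, adjusted p = 0.000147 by limma). Leaving out the mice numbered 2 left 3 calls, and leaving out NRF ZT8 replicate 2 alone ended those of Gpam (0.51, adjusted p = 0.121) and Mogat2 (1.52, adjusted p = 0.0574).

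Under DRF, ZT8 is the feeding phase, and none of the 10 genes passed the test against ZT20 by limma, where 11.5% of all genes did, 5.74% upward and 5.8% downward. At an unadjusted p under 0.05, met by 24.6% of all genes, there were 4, namely Agpat2 (0.95, SE 0.33, adjusted p = 0.0502), Lpin2 (0.25, SE 0.10), Agpat3 (-0.26, SE 0.12) and Dgat1 (-0.33, SE 0.15). Agpat2 lies at the threshold. It passed in 19 of 66 alternatives, among them the fit with replicate number as a block (adjusted p = 0.0448) and the one without the 2 libraries with epithelial markers (adjusted p = 0.0176), and its adjusted p ranged from 0.012 to 0.394. Without DRF ZT8 replicate 3, Lpin2 (0.33, adjusted p = 0.0211), Agpat3 (-0.37, 0.0461) and Dgat1 (-0.47, 0.0287) passed by limma, and without DRF ZT8 replicate 4 Dgat1 did (-0.47, 0.0334). Mogat2 had a difference of 0.13 (SE 0.55) and Dgat2 of 0.26 (SE 0.47). Whether the change itself differed between the regimens was tested as well. The DRF minus NRF difference of these changes was -1.901 for Pnpla3 (SE 0.49, adjusted p = 0.0119 by limma), in a test that called 7.48% of all genes, 4.12% in this direction and 3.36% in the other. That call was lost without NRF ZT8 replicate 2 (-1.38, adjusted p = 0.0551). The difference was -1.83 (SE 0.77) for Mogat2 and -1.61 (SE 0.66) for Dgat2, with adjusted p = 0.138 and 0.1245. Both passed without NRF ZT8 replicate 3 (adjusted p = 0.0245 and 0.0187 by limma), and Dgat1 passed without the 2 libraries with epithelial markers (0.61, adjusted p = 0.0151 by limma).

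**Figure D5:**
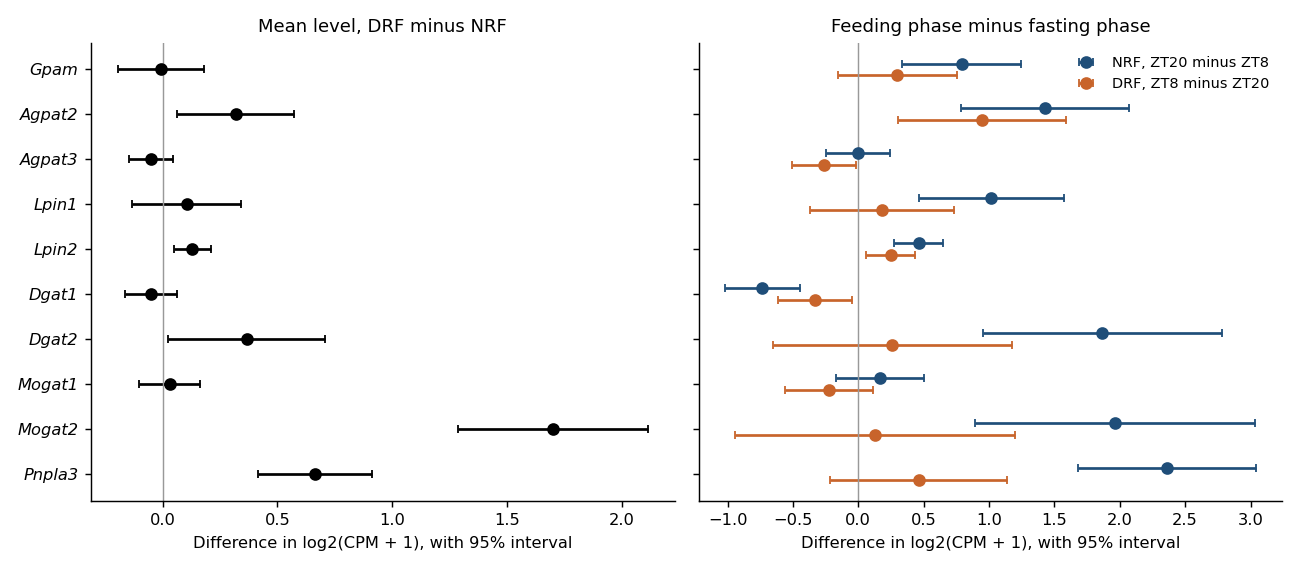
Differences in log2(CPM + 1) with normal 95% intervals for the 10 genes. The mean level, DRF minus NRF, is on the left, where Mogat2 is at 1.70 and Pnpla3 at 0.66, and the feeding phase minus the fasting phase within NRF and within DRF is on the right.

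At the same clock time, ZT8 gave 6 calls between the regimens: Mogat2 (2.76, SE 0.55), Pnpla3 (2.04, SE 0.35), Dgat2 (1.53, SE 0.47), Agpat2 (1.34, SE 0.33) and Lpin2 (0.40, SE 0.10) were higher under DRF and Dgat1 was lower (-0.60, SE 0.15), against 16.5% of all genes, 8.99% upward and 7.48% downward. Without DRF ZT8 replicate 1 these 6 passed and so did Gpam (0.77, adjusted p = 0.0217 by limma), which also passed without NRF ZT8 replicate 3 (0.87, adjusted p = 0.00448 by limma). Dgat2 lost its call without any 1 of 4 libraries at ZT8 (DRF replicates 3 and 4 and NRF replicates 2 and 4, adjusted p 0.0586 to 0.13 by limma). Leaving out the mice numbered 1 ended the calls of Dgat1 (adjusted p = 0.126 by limma) and Lpin2 (0.0504), while Gpam (0.0308) and Lpin1 (0.0413) passed. Leaving out those numbered 4 ended the calls of Agpat2 (0.0974), Lpin2 (0.0525) and Dgat2 (0.222), and without those numbered 2 Dgat2 was lost (0.195). At ZT20, Agpat2 (-1.04, SE 0.33) and Lpin2 (-0.31, SE 0.10) were lower under DRF and Dgat1 was higher (0.47, SE 0.15), against 13.1% of all genes, 6.4% downward and 6.71% upward. Each of these 3 calls was lost without any 1 of 3 or 4 single libraries at ZT20 (Agpat2 DRF replicates 1 and 4 and NRF replicates 2 and 3, Lpin2 DRF replicates 2 and 4 and NRF replicates 1 and 2, Dgat1 DRF replicate 2 and NRF replicates 2 and 4, with adjusted p up to 0.117 by limma). Mogat2 was at 0.66 (SE 0.55, adjusted p = 0.524) at ZT20.

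In some groups 1 mouse was low in most of these genes. At ZT8 under NRF, replicate 2 was the lowest of the 4 mice in all 10 genes, as it was in 28.8% of the 14290 genes with a mean of at least 1 CPM, and replicate 3 was the highest in 7, as in 30.5% of those genes (Gpam, Agpat2, Lpin1, Lpin2, Dgat2, Mogat2 and Pnpla3). The summed adipocyte markers of the 4 mice were 29990, 39960, 29650 and 40960 CPM. Replicate 2 also had the highest macrophage marker sum of all 56 libraries (1376 CPM, against 588, 535 and 658 CPM in replicates 1, 3 and 4) and the highest lymphocyte marker sum (17.3 CPM, against 4.37 to 6.53 CPM). Its red cell sum was 608 CPM (229 to 444 CPM in the others) and its mesothelium sum 468 CPM (222 to 302 CPM), and it lay farthest from the other libraries on the first principal component. Leaving it out ended at least 1 call each of Gpam, Dgat2, Mogat2 and Pnpla3, and the part of these other cells in its values was not tested. At ZT0 under NRF, replicate 1 was the lowest in 9 of the 10 (35.9% of all) and replicate 3 the highest in 8 (31.5%). Under DRF, replicate 4 at ZT0, with epithelial markers, and replicate 2 at ZT12 were the lowest in all 10 (41.3% and 24.2% of all), and replicate 4 at ZT20 in 9 (17.9%). Replicate 1 at ZT8 under DRF, with epithelial markers, was the lowest in 8 (41.1% of all). Replicate 2 at ZT4 under DRF was the lowest in 7 (28.3%). So were replicate 3 at ZT4 (27.5%) and replicate 1 at ZT12 (32.1%) under NRF. In each other group no mouse was the lowest in more than 6. The most even was ZT20 under NRF, where the 4 mice were the lowest in 1, 3, 2 and 4 of the 10. These counts were not tested. The spread between mice of a group was widest for Mogat2, with a pooled SD of 0.98 on log2 under NRF and 0.57 under DRF. Dgat2 (0.83 and 0.40), Pnpla3 (0.66 and 0.29) and Agpat2 (0.55 and 0.38) also varied more under NRF as measured, and Dgat1 (0.10 and 0.28), Mogat1 (0.17 and 0.30) and Agpat3 (0.13 and 0.21) less. The widest group of every gene under DRF was ZT8, which includes a library with epithelial markers. The difference in spread was not tested.

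Among 14093 genes with a mean of at least 1 on log2(CPM + 1), the 5 whose 14 group means followed those of Mogat2 most closely were Gm12070 (Pearson r = 0.971), Pls3 (0.971), an actin-bundling protein, Ncan (0.969), a proteoglycan, Aldh1a7 (0.969), an aldehyde dehydrogenase, and Fabp5 (0.965), a fatty acid-binding protein. All of them shared the libraries of Mogat2, and the values are a description. Fabp5 averaged 359 CPM under NRF and 692 CPM under DRF, and Ncan 2.88 and 14.5 CPM. Of the other triglyceride synthesis genes, Dgat2 (0.71) and Pnpla3 (0.70) came closest, at ranks 1043 and 1063, and Dgat1 (-0.14) was farthest.

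Of 25 further genes of glycerolipid synthesis, its substrates and its regulators, 23 were in the table. In mean level 6 of the 23 differed, 3 upward and 3 downward, in a test that called 21.7% of all genes. Gpat3, the microsomal glycerol-3-phosphate acyltransferase, was lower under DRF (-0.54, SE 0.08, adjusted p = 1.15e-06 by limma), as was the lipid phosphatase Plpp3 (-0.27, SE 0.05, adjusted p = 2.03e-05 by limma), whereas the glycerol kinase Gk was higher (0.36, SE 0.07, adjusted p = 0.000111 by limma). Between ZT20 and ZT8 under NRF, 6 rose and 4 fell, against 21.8% of all genes called. Mlxipl, the carbohydrate-responsive factor ChREBP, rose by 2.15 (SE 0.40) and Gpd1, which makes glycerol 3-phosphate, by 1.55 (SE 0.41), while Acsl1, which activates fatty acids, was lower (-1.003, SE 0.21). Under DRF, 5 of the 23 passed between ZT8 and ZT20, 1 upward and 4 downward, against 11.5% of all genes. Acsl1 was among the latter (-1.06, SE 0.21), as was Gpat3 (-0.92, SE 0.19), which had also fallen under NRF (-0.86, SE 0.19). The hours of Acsl1, with peaks at ZT11.1 under NRF and ZT23.95 under DRF, lay near those of Dgat1, and those of Mlxipl, ZT19.5 and ZT11.95, near those of Pnpla3. A rhythm was called for 16 of the 23 under NRF and for 10 under DRF, against 25.5% and 14.7% of all genes.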

How the data were processed

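VAT RNA was sequenced by the authors as poly(A) libraries (NEBNext Ultra, paired reads of 150 bases) from 56 mice. The submitters' processing notes name HISAT2 2.0.5, featureCounts 1.5.0-p3 and mm10; strand settings and annotation release are not given in the sources used here. The deposited values, named TPM by the authors, were treated as a score: each is the logarithm of 1 plus reads over an effective library size, divided by exon length and rescaled per library. The steps between low values gave back whole reads (tolerance 0.02) at the GENCODE M21 (GRCm38) length for 25052 of 25939 genes and at a length found from the values for 862, including Gpam (3832 bases in place of 6664). Another 6 were too abundant for this check and were used, and 19, among them Scd1, were not used, which left 25920. For Dgat2, 23 of 56 values were low enough to check. Recovered reads per library had a median of 35.6 M. CPM are recovered reads over the effective size the deposited values hold. TPM were computed from reads and lengths. The planned tests assumed linear values, so they were run on these CPM.

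Mean level, rhythm interaction (24 h cosine and sine per regimen) and single times (14 groups) were tested in limma 3.58.1 (R 4.3.3) on log2(CPM + 1) with an intensity trend; the pseudocount of 1 understates changes of low genes. Intervals of these differences are normal 95% intervals. Rhythms per regimen combined JTK_CYCLE and Lomb-Scargle by Fisher's method after meta2d, in Python 3.11.15 with scipy 1.17.1. Phase and amplitude came from a cosine fit with delta-method errors and t intervals. The t tests of limma and JTK_CYCLE were two-sided, and the F tests, Lomb-Scargle and Fisher's method used the upper tail. All p were adjusted by Benjamini-Hochberg over all genes, with a threshold of 0.05. The difference of the feeding response between regimens was an added test, chosen after seeing the data. Programs were checked on simulated data first. Alternatives covered the pseudocount, a filter on low genes, median-of-ratios and total-read scaling, the replicate block, JTK_CYCLE alone, the limma F test, the ZT24 libraries, and leaving out replicate numbers, single libraries or the 2 libraries with epithelial markers. The scaling on total reads and the single libraries were chosen after seeing the data. The members, motifs and gene lists were chosen with earlier results of these data known. All 10 genes are described, with the 5 most like Mogat2, and up to 3 further pathway genes with the largest changes in mean level and in ZT20 against ZT8 under NRF. Replicate numbers name different mice.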

Additional observations from a re-analysis of the deposited data

Results flagged for a closer look

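In 4 of 140 sets of 4 mice (10 genes in 14 groups), 1 mouse lay far from the other 3, where chance gives about 5% of sets. Lpin1 was low in NRF ZT24 replicate 1 (309 CPM), Mogat1 was high in DRF ZT4 replicate 3 (17.4 CPM), and Pnpla3 was high in DRF ZT16 replicate 1 (787 CPM) and in NRF ZT24 replicate 4 (718 CPM). The last is the library with Alb at 1385 CPM, in which Lpin2, Dgat2 and Mogat2 were also the highest of the 4 mice. The part of liver transcripts in these values was not tested.

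The rhythm at clock time differed between the regimens, by limma with adjustment over all genes, for Dgat1 (adjusted p = 3.59e-14), Pnpla3 (1.55e-09), Agpat2 (1.68e-07), Lpin2 (1.81e-06), Gpam (3.63e-05), Lpin1 (0.000162), Dgat2 (0.00215) and Mogat2 (0.0325). The Mogat2 call was lost without any 1 of 8 libraries, NRF ZT8 replicates 1, 2 and 4, NRF ZT12 replicate 1, DRF ZT8 replicates 3 and 4 and DRF ZT20 replicates 1 and 4 (adjusted p 0.0502 to 0.0856), and the Dgat2 call without the mice numbered 4 (adjusted p = 0.0837). With feeding phases aligned, the rhythm differed for Pnpla3 (adjusted p = 0.00276), Dgat1 (0.0312) and Lpin1 (0.034). The last 2 calls were lost without any 1 of 2 libraries (Dgat1, DRF ZT8 replicates 3 and 4) or 5 libraries (Lpin1, DRF ZT16 replicates 1, 3 and 4 and NRF ZT4 replicates 3 and 4). That of Dgat1 was also lost without the mice numbered 2, 3 or 4, and that of Lpin1 without those of any 1 number. The Pnpla3 call was lost without the mice numbered 2 (adjusted p = 0.0826). The change from fasting to feeding phase differed between the regimens for Pnpla3 (adjusted p = 0.0119).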

How the results depend on the processing

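Single libraries aside, across 1010 repeats of the 100 tests on the 10 genes under alternative settings, 922 kept direction and side of the threshold, 53 calls were lost, 35 were gained and 0 calls reversed. The rise of Mogat2 and Pnpla3 in mean level, and the rhythms of Dgat1 under both regimens, passed under every alternative. The following ranges come from leaving out replicate numbers or single libraries, and for the rhythms under NRF and DRF from replicate numbers alone. For mean level, 2 to 4 of the 10 genes and 3810 to 6693 of all genes were called. For the rhythm at clock time, 6 to 9 of the 10 genes and 7359 to 9991 of all genes were called. For the rhythm at feeding time, 0 to 3 of the 10 genes and 1424 to 4724 of all genes were called. For ZT8 between regimens, 3 to 7 of the 10 genes and 2259 to 4684 of all genes were called. For ZT20 between regimens, 0 to 3 of the 10 genes and 1622 to 3881 of all genes were called. For ZT20 against ZT8 under NRF, 3 to 8 of the 10 genes and 3016 to 6118 of all genes were called. For ZT8 against ZT20 under DRF, 0 to 3 of the 10 genes and 1554 to 3535 of all genes were called. For the difference of these changes, 0 to 3 of the 10 genes and 148 to 3102 of all genes were called. For rhythm under NRF, 3 to 6 of the 10 genes and 3803 to 5070 of all genes were called. For rhythm under DRF, 1 to 3 of the 10 genes and 1785 to 2245 of all genes were called. These settings also use fewer mice. Without the 2 libraries with epithelial markers, 4907 genes were called for the rhythm at feeding time, 5008 for ZT8 and 4235 for ZT20 between regimens, 6594 for ZT20 against ZT8 under NRF and 4782 rhythms under DRF. There, 5 of the 10 genes passed in mean level (7495 of all genes), 1 between ZT8 and ZT20 under DRF (2481 of all) and 2 in the difference of changes (1585 of all), with Dgat1 added. Between ZT8 and ZT20 under DRF, 1 gene (Agpat2) passed with a pseudocount of 0.1 and with the filter at a mean CPM of 1, and 2 (with Lpin2) on total reads, which also gave 2 in the difference of changes. The limma F test called 6926 rhythms under DRF in place of 3809. The cause of these changes was not tested. The median shift of the 4 genes rhythmic under both regimens was 9.90 to 10.2 h over the alternatives. The median log2 difference of all genes between the regimens was -0.0013 as reported, -0.0448 on total reads and 0.0044 with median-of-ratios.

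Replicate numbers were not found to pair the mice across the regimens. At the same time point, deviations of same-numbered mice of the 2 regimens had a median correlation of 0.0224 over 28 pairs (-0.303 to 0.338). Within DRF the number did go with marker levels. The mice numbered 1 had the lowest macrophage and mesothelium marker sums of their group at every time but ZT16. The source of this was not tested. With the replicate number as a block, 1 of the 10 genes passed between ZT8 and ZT20 under DRF (Agpat2) in place of 0, and the block changed no other count over the 10 genes. It raised the calls in mean level over all genes from 5624 to 5809.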
